A study of Mus musculus with 6 samples.

Results

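The genes that carry proteins into mitochondria and keep them folded or degrade them there were followed in the inguinal white adipose tissue (IWAT) of mice with a nonsense allele of *Ebf2*. Genes were taken by name as every numbered *Timm* and *Tomm* gene, together with *Hspd1*, *Hspe1*, *Hspa9*, *Lonp1*, *Clpp*, *Clpx*, *Afg3l1*, *Afg3l2*, *Yme1l1*, *Spg7*, *Phb*, *Phb2*, *Pmpca*, *Pmpcb*, *Dnaja3*, and *Grpel1*, without pseudogenes and with at least 10 counts summed over the 6 libraries. Of the 55491 genes in the table, 42 matched these names and 41 had enough counts, out of 32664 genes that had a count in any of the libraries. *Tomm20l* had 0 counts in every library and was left out. RNA was sequenced from the IWAT of 3 *Ebf2*+/+ (wild-type) and 3 *Ebf2* E165X/+ (heterozygous knock-in) mice, 1 library per mouse. All were male C57BL/6J mice, 4 weeks of age and on regular chow, and the labels name no other allele or treatment. The allele places a stop codon in *Ebf2*, which encodes a transcription factor of the adipocyte lineage, and it was made with CRISPR/Cas9 in hybrid zygotes whose founders were then bred to C57BL/6J mice. It is carried in every cell of the animal, and the tissue was sequenced whole. Library totals reached 124927686, 106820505, and 123853070 counts for the *Ebf2*+/+ mice, as against 110850284, 117413441, and 135039488 for the *Ebf2* E165X/+ mice. Levels below are CPM values, which are relative to the library size as scaled by edgeR's TMM method.

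Most mitochondrial proteins are made in the cytosol as precursors. They pass the outer membrane through the TOM complex, and are then handed to the TIM23 complex for the matrix and inner membrane or to small TIM chaperones and the TIM22 complex for carrier proteins. In the matrix a motor of mitochondrial Hsp70 pulls precursors in, a processing peptidase removes their presequences, the chaperonin of Hsp60 and Hsp10 folds them, and ATP-dependent proteases degrade those that fail. Brown and beige adipocytes are rich in mitochondria, and *Ebf2* is known for its part in their identity.

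The targeted gene *Ebf2* (ENSMUSG00000022053) was measured at 38.3, 41.3, and 37.2 CPM in the *Ebf2*+/+ mice and at 22.8, 22.9, and 21.1 CPM in the *Ebf2* E165X/+ mice. The genotypes did not overlap, and the log2 fold change was −0.81 (SE 0.076, adjusted *P* = 0.0596 by edgeR's quasi-likelihood test). In DESeq2 it was −0.82 (adjusted *P* = 1.23e-13). The 10 adipocyte markers, led by *Fabp4*, made up 1.66%, 1.89%, and 1.58% of the counts in *Ebf2*+/+ mice and 1.76%, 1.72%, and 1.06% in *Ebf2* E165X/+ mice, and none was at 0. Skeletal muscle markers were also present, and they were highest in the third *Ebf2* E165X/+ mouse. The 8 of them, led by *Myh4*, took 0.155%, 0.660%, and 0.252% of all counts in *Ebf2*+/+ mice and 0.288%, 0.0689%, and 3.62% in *Ebf2* E165X/+ mice. Because that library stands apart, the counts over the 41 genes and over the pathway and comparison lists are also given without it.

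No gene of the import and quality control machinery passed both thresholds, an adjusted *P* under 0.05 and a linear fold change above 1.5, in edgeR's quasi-likelihood test. Across all 32664 genes tested, 3 passed, or 0.00918%. The direction of the estimates was lopsided. The log2 fold change, *Ebf2* E165X/+ against *Ebf2*+/+, was below 0 for 37 of the 41 genes, and its median was −0.22, with a range of −0.45 to 0.23. For comparison, 18905 genes reached 10 counts in each of the 6 libraries and are called well-counted here. Among them, 43.9% had a log2 fold change below 0, and the median was 0.025. Of the 41 genes, 40 were well-counted, the exception being *Timm8a2*. An unadjusted *P* under 0.05 in edgeR was reached by 17 of the 40, all of them lower in *Ebf2* E165X/+ mice and none higher, while 4.21% of the well-counted genes reached it as lower and 1.86% as higher. All 3 *Ebf2* E165X/+ mice lay below all 3 *Ebf2*+/+ mice for 16 of the 40 and above them for 0, against 6.78% and 6.66% of the well-counted genes. limma-voom gave 17 genes with an unadjusted *P* under 0.05, against 4.2% of well-counted genes that reached it as lower, and 0 with an adjusted one. DESeq2 gave 17, against 5.18%, and 2 with an adjusted *P* under 0.05. The 2 were *Timm50* (adjusted *P* = 0.0198 in DESeq2) and *Afg3l2* (adjusted *P* = 0.0226 in DESeq2), both with fold changes smaller than 1.5, and in that test 1.06% of the 15997 well-counted genes with an adjusted *P* from DESeq2 were lower at an adjusted *P* under 0.05. In edgeR the adjusted *P* was 0.592 for *Timm50*, 0.683 for *Afg3l2*, and at least 0.783 for the other members. In bulk tissue, fewer cells of a type that is rich in these transcripts and less RNA per cell cannot be told apart.

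**Figure D1:**
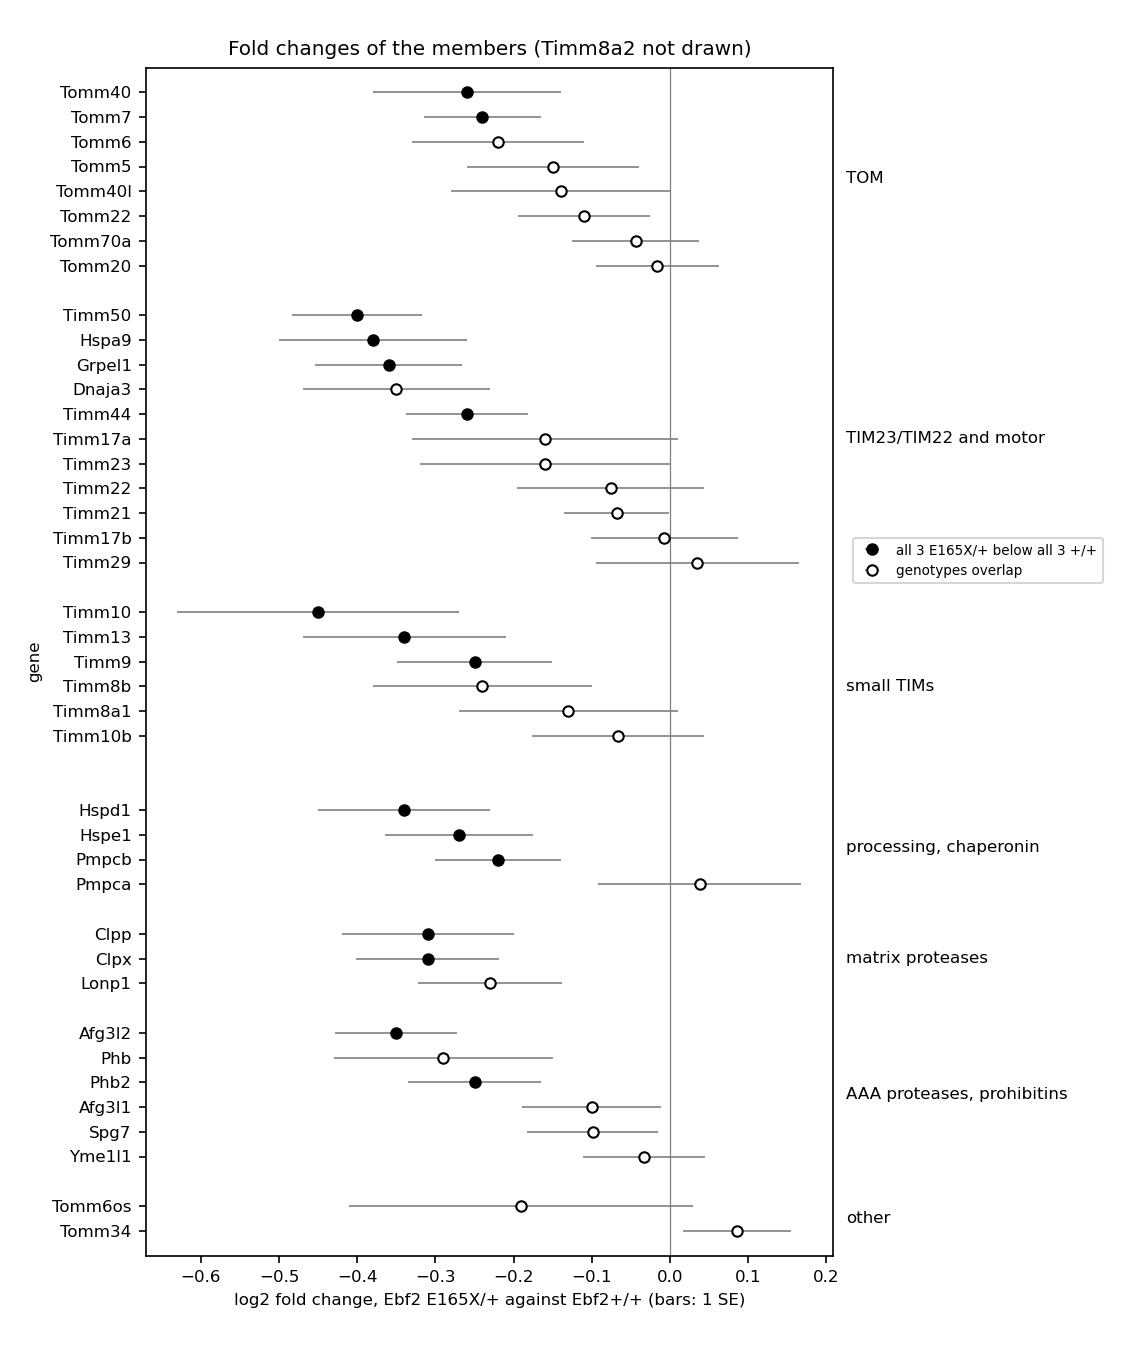
Log2 fold change of each gene, *Ebf2* E165X/+ against *Ebf2*+/+, with bars of 1 SE from edgeR, ordered by role; *Timm8a2* is not drawn because of its low counts. The 16 filled points are genes in which all 3 *Ebf2* E165X/+ mice lay below all 3 *Ebf2*+/+ mice, and the estimates run from −0.45 (*Timm10*) to 0.086 (*Tomm34*).

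Promoter windows, 250 bases before to 50 bases after the start, were found in the RefSeq table for GRCm38.p6 for 36 of the 41 genes. They are shown for *Hspe1*, and for *Grpel1* and *Timm50*, which had small unadjusted *P* values. *Hspd1* has 2 windows on the opposite strand. The one at 55087883 to 55088182 overlaps most of the *Hspe1* window, and the one at 55088194 to 55088493 held no match. Capitals mark every match, on either strand, to one of 6 letter strings, namely GCATGCGC for NRF1, CCGGAAG for the ETS factor GABPA, CAAGGTCA for ERR, CCCNNGGG for EBF, GAANNTTC for heat shock factor, and TGATGNAA for ATF4 with C/EBP. Matches of different strings can overlap, as those for GABPA and heat shock factor do in *Hspe1*.
*Hspe1*, chr1:55087898-55088197, plus strand: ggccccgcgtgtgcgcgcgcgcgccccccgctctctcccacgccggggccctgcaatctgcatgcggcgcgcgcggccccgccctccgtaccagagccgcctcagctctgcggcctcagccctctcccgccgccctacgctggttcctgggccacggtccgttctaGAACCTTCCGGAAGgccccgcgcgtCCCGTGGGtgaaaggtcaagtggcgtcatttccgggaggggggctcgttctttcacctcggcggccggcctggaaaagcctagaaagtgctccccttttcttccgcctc
*Grpel1*, chr5:36464935-36465234, plus strand: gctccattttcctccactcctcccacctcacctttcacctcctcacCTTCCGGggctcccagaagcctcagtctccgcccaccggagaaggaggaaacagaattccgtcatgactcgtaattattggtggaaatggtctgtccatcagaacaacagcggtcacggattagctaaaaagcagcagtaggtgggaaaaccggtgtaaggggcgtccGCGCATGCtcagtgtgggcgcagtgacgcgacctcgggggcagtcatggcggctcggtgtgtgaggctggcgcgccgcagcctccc
*Timm50*, chr7:28311997-28312296, minus strand: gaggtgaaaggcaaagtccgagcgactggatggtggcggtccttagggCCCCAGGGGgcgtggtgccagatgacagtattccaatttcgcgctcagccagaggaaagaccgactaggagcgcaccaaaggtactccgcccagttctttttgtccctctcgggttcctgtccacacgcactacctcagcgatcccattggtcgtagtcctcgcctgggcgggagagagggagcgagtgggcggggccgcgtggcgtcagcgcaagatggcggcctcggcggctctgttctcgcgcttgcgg
The *Hspe1* window holds the GABPA, EBF, and heat shock factor strings, the *Grpel1* window the NRF1 and GABPA strings, and the *Timm50* window the EBF string. CCGGAAG was found in 18 of the 36 genes (50%), against 17.3% of the 12878 well-counted genes that have a promoter entry, and 9.93% of all 27025 genes with one. CCCNNGGG was found in 8 (22.2%), against 20.9% and 15.4%. GCATGCGC was in 3 (*Grpel1*, *Clpx*, and *Timm13*; 8.33%), against 5.15% and 3.05%, and GAANNTTC was in 3 (*Hspd1*, *Hspe1*, and *Timm9*; 8.33%), against 7.08% and 9.04%. CAAGGTCA was in 1 (*Timm8b*; 2.78%), against 1.39% and 1.76%, and TGATGNAA in 0, against 2.92% and 4.51%. The CCGGAAG, CCCNNGGG, and GAANNTTC matches of *Hspd1* and *Hspe1* are the same bases, counted for both genes. The share of EBF strings among these genes was close to that of other genes with counts, and a match describes letters only.

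The outer membrane translocase (TOM) is the entry gate. All of its 8 genes had a log2 fold change below 0, with a median of −0.14, but 1 of 8 had an unadjusted *P* under 0.05 in edgeR and 2 of 8 had no overlap between the genotypes. Beside these counts, 4.21% of well-counted genes reached such a *P* as lower and 6.78% lay lower without overlap. *Tomm20*, the receptor for presequences, was measured at 104, 94.6, and 98.5 CPM in *Ebf2*+/+ mice and 97.4, 92.0, and 104 CPM in *Ebf2* E165X/+ mice. These are overlapping values, and the log2 fold change of −0.016 (SE 0.079) took either sign when single mice were left out. *Tomm70a*, the receptor for carrier precursors, likewise overlapped, at 121, 121, and 111 CPM against 113, 108, and 121 CPM (log2 fold change −0.044, SE 0.081, or −0.11 to −0.005 with single mice left out). *Tomm22*, the central receptor that joins the pores, was measured at 54.7, 54.6, and 50.9 CPM in *Ebf2*+/+ mice and 47.2, 46.7, and 54.9 CPM in *Ebf2* E165X/+ mice. The third *Ebf2* E165X/+ mouse had the highest value of all 6 for *Tomm22*, the other *Ebf2* E165X/+ mice the lowest values, and the log2 fold change was −0.11 (SE 0.084). That estimate was −0.19 without the third and −0.064 without the second *Ebf2* E165X/+ mouse. The pore gene did not overlap between the genotypes. *Tomm40*, the beta-barrel pore, had 51.4, 38.1, and 39.4 CPM in *Ebf2*+/+ mice and 34.5, 37.2, and 35.6 CPM in *Ebf2* E165X/+ mice, with a log2 fold change of −0.26 (SE 0.12, unadjusted *P* = 0.0585 in edgeR). The first *Ebf2*+/+ mouse lay well above the other 2 for *Tomm40*, so the gap between the genotypes was narrow, and without that mouse the log2 fold change was −0.13. *Tomm7*, a small subunit that regulates the assembly of TOM and also holds PINK1 at the outer membrane, had 29.7, 30.0, and 27.4 CPM against 23.6, 25.6, and 24.4 CPM, without overlap. Its log2 fold change was −0.24 (SE 0.075, unadjusted *P* = 0.0126 in edgeR, or 0.0558 without the first *Ebf2* E165X/+ mouse). The other small subunits *Tomm5* (−0.15, SE 0.11) and *Tomm6* (−0.22, SE 0.11) and the *Tomm40* paralog *Tomm40l* (−0.14, SE 0.14) overlapped between the genotypes. Without the first *Ebf2*+/+ mouse these were −0.081, −0.10, and −0.011. *Tomm40l* shares exon bases with *Nr1i3* on the other strand in the GENCODE M21 annotation of GRCm38, and reads of such pairs are uncertain where the counting does not use strand. The same holds for *Grpel1* with *Tada2b* and for several other members, and *Tomm6* shares most of its exon bases with *Gm21981* on its own strand, so that its reads could be split whether or not strand was used.

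The inner membrane translocases and their motor take over from TOM. Of these 11 genes 10 had a log2 fold change below 0, 5 had an unadjusted *P* under 0.05 in edgeR, 4 had no overlap, and the median was −0.16. Among well-counted genes 4.21% reached such a *P* as lower and 6.78% lay lower without overlap. Without the first *Ebf2* E165X/+ mouse *Dnaja3* (unadjusted *P* = 0.0718 in edgeR) and *Hspa9* (0.0577) were no longer under 0.05. Without the third *Ebf2* E165X/+ mouse all 11 were below 0 and the median was −0.34. *Timm50* (ENSMUSG00000003438), the TIM23 receptor that takes up precursors in the intermembrane space, was measured at 46.8, 48.2, and 40.4 CPM in *Ebf2*+/+ mice and 35.3, 34.2, and 33.2 CPM in *Ebf2* E165X/+ mice. The *Ebf2* E165X/+ values were close together and all lay under the lowest *Ebf2*+/+ value. The means were 45.1 ± 4.15 and 34.3 ± 1.08 CPM (SD, n = 3 mice each), and the log2 fold change was −0.40 (SE 0.083). With all mice *Timm50* had the smallest unadjusted *P* of the 41 genes in edgeR (0.00167). In limma-voom that of *Afg3l2* was smaller (0.00299 against 0.00362). It was also smaller in edgeR without the third *Ebf2* E165X/+ mouse (0.000753 against 0.00363). Without the first or the second *Ebf2*+/+ mouse *Grpel1* had a smaller *P* than *Timm50* in edgeR.

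Of the genes of the motor on the matrix side, *Hspa9*, *Grpel1*, and *Timm44* did not overlap between the genotypes. *Hspa9*, the mitochondrial Hsp70 that drives import and folds what arrives, had 556, 519, and 443 CPM in *Ebf2*+/+ mice and 360, 402, and 404 CPM in *Ebf2* E165X/+ mice. The lowest *Ebf2*+/+ value was above the highest *Ebf2* E165X/+ value, and the log2 fold change was −0.38 (SE 0.12, unadjusted *P* = 0.0161 in edgeR). *Grpel1*, its nucleotide exchange factor, had 79.6, 64.6, and 65.4 CPM against 54.4, 53.6, and 55.9 CPM, again without overlap, with a log2 fold change of −0.36 (SE 0.094, unadjusted *P* = 0.0059 in edgeR). *Timm44*, which tethers Hsp70 to the channel, was at 59.4, 58.3, and 58.7 CPM and at 45.7, 47.5, and 53.7 CPM. It varied little among *Ebf2*+/+ mice, the third *Ebf2* E165X/+ mouse lay between the other *Ebf2* E165X/+ mice and the controls, and the log2 fold change was −0.26 (SE 0.078, unadjusted *P* = 0.0101 in edgeR). *Dnaja3*, a J-domain partner of Hsp70, had 81.7, 77.0, and 68.4 CPM in *Ebf2*+/+ mice and 52.6, 55.8, and 69.3 CPM in *Ebf2* E165X/+ mice. The third *Ebf2* E165X/+ value passed the lowest *Ebf2*+/+ value, so that the genotypes overlapped at a log2 fold change of −0.35 (SE 0.12, unadjusted *P* = 0.0197 in edgeR).

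For the channel subunits of TIM23 and TIM22 the third *Ebf2* E165X/+ mouse lay at or near the top, as it also did for *Tomm22* and *Pmpca*. *Timm23*, the channel-forming subunit, had 121, 92.7, and 95 CPM in *Ebf2*+/+ mice and 83.2, 79.6, and 113 CPM in *Ebf2* E165X/+ mice. *Timm17a*, its partner in the channel, had 65.4, 54.9, and 54.1 CPM and then 42.1, 46.7, and 66.9 CPM. In both genes 2 *Ebf2* E165X/+ mice lay under every *Ebf2*+/+ mouse and the third did not, and the log2 fold changes were −0.16 (SE 0.16) for *Timm23* and −0.16 (SE 0.17) for *Timm17a*. Without the third *Ebf2* E165X/+ mouse these log2 fold changes were −0.34 and −0.39. They were as small as −0.042 for *Timm23* (without the first *Ebf2*+/+ mouse) and −0.033 for *Timm17a* (without the first *Ebf2* E165X/+ mouse). *Timm23* lies on chromosome 14, as *Ebf2* and the member *Timm8a2* do. *Timm22*, the channel for carrier proteins, had 23.0, 18.5, and 18.7 CPM against 18.2, 17.6, and 21.3 CPM, with overlap and a log2 fold change of −0.076 (SE 0.12). Its companion *Timm29* had 57.4, 48.3, and 45.6 CPM against 47.5, 46.5, and 61.1 CPM. For *Timm29* the log2 fold change was 0.035 (SE 0.13) with all mice, and leaving out the third *Ebf2* E165X/+ mouse gave −0.10. The paralog *Timm17b* (−0.0071, SE 0.094) and the regulatory subunit *Timm21* (−0.068, SE 0.067) also overlapped.

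Among the small TIM chaperones, which escort carrier proteins across the intermembrane space, 6 of 7 genes had a log2 fold change below 0, 3 had an unadjusted *P* under 0.05 in edgeR, and 3 had no overlap, with a median of −0.24. Such a *P* was reached as lower by 4.21% of well-counted genes, and 6.78% lay lower without overlap. Without the first *Ebf2* E165X/+ mouse *Timm10*, *Timm13*, and *Timm9* did not reach it (unadjusted *P* = 0.119, 0.0967, and 0.0734 in edgeR). *Timm10* had 11.7, 8.30, and 8.65 CPM in *Ebf2*+/+ mice and 6.08, 6.78, and 8.17 CPM in *Ebf2* E165X/+ mice. The highest *Ebf2* E165X/+ value was just below the lowest *Ebf2*+/+ value, and the log2 fold change of −0.45 was the largest in size among the 40 well-counted members with all mice, with a large SE of 0.18 (unadjusted *P* = 0.0398 in edgeR). That rank was lost without the first *Ebf2*+/+ mouse (*Timm10* at −0.29, *Timm50* at −0.39) and without the first *Ebf2* E165X/+ mouse (−0.36 and −0.42). Its partner *Timm9* had 15.7, 14.1, and 15.0 CPM against 12.7, 11.6, and 13.3 CPM, without overlap, with a log2 fold change of −0.25 (SE 0.099, unadjusted *P* = 0.0366 in edgeR). In the other hexamer, *Timm13* had a log2 fold change of −0.34 (SE 0.13, unadjusted *P* = 0.0292 in edgeR) without overlap, and its partner *Timm8a1* one of −0.13 (SE 0.14) with overlap. Without the first *Ebf2*+/+ mouse these were −0.21 and −0.017. *Timm8b* (−0.24, SE 0.14) and *Timm10b* (−0.066, SE 0.11) overlapped as well. *Timm8a2* was nearly silent, at 0.0250 to 0.0726 CPM in the 6 libraries, and its log2 fold change of 0.23 (SE 0.56) lay within 1 SE of 0.

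The processing peptidase and the chaperonin of the matrix came next. Of these 4 genes 3 had a log2 fold change below 0, an unadjusted *P* under 0.05 in edgeR, and no overlap. Among well-counted genes 4.21% reached such a *P* as lower and 6.78% lay lower without overlap. Without the first *Ebf2* E165X/+ mouse *Hspe1* (unadjusted *P* = 0.0842 in edgeR) and *Pmpcb* (0.0776) did not reach it. Without the third *Ebf2* E165X/+ mouse that of *Pmpcb* was 0.0504. *Hspd1*, which encodes Hsp60, was measured at 380, 372, and 312 CPM in *Ebf2*+/+ mice and 275, 287, and 277 CPM in *Ebf2* E165X/+ mice. The *Ebf2* E165X/+ mice were tightly grouped below the controls, at 280 ± 6.27 against 355 ± 37.5 CPM (SD, n = 3 mice each), and the log2 fold change was −0.34 (SE 0.11, unadjusted *P* = 0.0146 in edgeR). *Hspe1*, which encodes the Hsp10 lid, had 72.3, 61.0, and 62.1 CPM against 49.0, 56.1, and 56.6 CPM, without overlap, and a log2 fold change of −0.27 (SE 0.095, unadjusted *P* = 0.0221 in edgeR). These 2 genes lie head to head on chromosome 1 of GRCm38, *Hspd1* at 55077835 to 55088243 on the minus strand and *Hspe1* at 55088132 to 55091307 on the plus strand, so that their exons overlap in part. Their values can share reads at that place if the counting does not use strand, and *Hspd1* has processed copies (*Hspd1-ps4* with 6492 counts and *Hspd1-ps3* with 1782 over all libraries) between which reads could be split. The subunits of the processing peptidase are *Pmpcb* and *Pmpca*, and no difference between them was tested. *Pmpcb*, the catalytic one, had 89.7, 83.4, and 76.2 CPM against 70.3, 73.8, and 69.8 CPM, without overlap, and a log2 fold change of −0.22 (SE 0.080, unadjusted *P* = 0.0266 in edgeR). *Pmpca*, the substrate-binding one, had 97, 87.9, and 84.1 CPM against 82.1, 82.6, and 111 CPM. Its first 2 *Ebf2* E165X/+ values were below all controls and that of the third above them, giving a log2 fold change of 0.038 (SE 0.13) with all mice, and leaving out the third *Ebf2* E165X/+ mouse gave −0.12. *Pmpca* also shares exon bases with *Inpp5e* on the other strand.

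All 3 genes of the soluble matrix proteases had an unadjusted *P* under 0.05 in edgeR, against 4.21% of well-counted genes as lower, with a median log2 fold change of −0.31. Without the first *Ebf2* E165X/+ mouse *Clpp* (unadjusted *P* = 0.0654 in edgeR) and *Lonp1* (0.121) did not reach it. *Clpx*, the unfoldase of the ClpXP protease, had 89.9, 88.2, and 77.9 CPM in *Ebf2*+/+ mice and 63.7, 67.9, and 74.9 CPM in *Ebf2* E165X/+ mice, without overlap. *Clpp*, its proteolytic partner, had 26.4, 22.3, and 21.5 CPM against 18.3, 20.3, and 18.1 CPM, also without overlap. The log2 fold change was −0.31 for both *Clpx* (SE 0.091, unadjusted *P* = 0.0103 in edgeR) and *Clpp* (SE 0.11, unadjusted *P* = 0.0203 in edgeR). *Lonp1*, the main protease for oxidized matrix proteins, had 119, 110, and 99.7 CPM against 89.8, 101, and 90.5 CPM. Here the second *Ebf2* E165X/+ mouse reached just above the lowest control, and the log2 fold change was −0.23 (SE 0.092, unadjusted *P* = 0.0397 in edgeR).

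The inner membrane AAA proteases and the prohibitins that surround them all had log2 fold changes below 0 (6 of 6, median −0.17), and 2 had no overlap and an unadjusted *P* under 0.05 in edgeR. For well-counted genes the shares were 6.78% lower without overlap and 4.21% lower with such a *P*. *Afg3l2* (ENSMUSG00000024527), the core of the protease that faces the matrix, was measured at 95.8, 92.4, and 87.5 CPM in *Ebf2*+/+ mice and 69.3, 69.6, and 77.7 CPM in *Ebf2* E165X/+ mice. The means of 91.9 ± 4.17 and 72.2 ± 4.75 CPM (SD, n = 3 mice each) lay apart by more than their SDs, and the log2 fold change was −0.35 (SE 0.078, unadjusted *P* = 0.00238 in edgeR). Its partner subunits *Afg3l1* (log2 fold change −0.10, SE 0.089) and *Spg7* (−0.099, SE 0.084) overlapped between the genotypes. With single mice left out they ran from −0.19 to −0.028 (lowest without the third and highest without the first *Ebf2*+/+ mouse) and from −0.17 to −0.058 (lowest without the third *Ebf2*+/+ and highest without the first *Ebf2* E165X/+ mouse), respectively. *Yme1l1*, the protease that faces the intermembrane space, had 156, 147, and 141 CPM against 146, 149, and 139 CPM. These values overlapped, at a log2 fold change of −0.033 (SE 0.078), or −0.091 to −0.0071 with single mice left out. *Phb2*, a scaffold subunit and mitophagy receptor, had 132, 120, and 113 CPM against 97.9, 103, and 107 CPM, without overlap, with a log2 fold change of −0.25 (SE 0.085, unadjusted *P* = 0.0205 in edgeR). That *P* was 0.0764 without the first and 0.0513 without the second *Ebf2* E165X/+ mouse. With a block for replicate number it was 0.0519. *Phb*, the other prohibitin, had 136, 110, and 94.3 CPM against 82.6, 94.9, and 101 CPM, with overlap (log2 fold change −0.29, SE 0.14, or −0.16 without the first *Ebf2*+/+ mouse). No difference between *Afg3l2* and *Yme1l1*, or between other members, was tested.

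The remaining 2 genes bear the names but not the function of the translocase. *Tomm34*, a cytosolic co-chaperone of Hsp70 and Hsp90, had 30.3, 30.5, and 32.9 CPM in *Ebf2*+/+ mice and 33, 34.2, and 32.3 CPM in *Ebf2* E165X/+ mice. It overlapped between the genotypes, and its log2 fold change of 0.086 (SE 0.069, unadjusted *P* = 0.253 in edgeR) was the highest of the 40 well-counted genes with all mice. Without the first *Ebf2*+/+ mouse it was 0.049, and *Timm29* was higher at 0.12. *Pmpca* was higher, at 0.11, without the first or the second *Ebf2* E165X/+ mouse (*Tomm34* at 0.089 and 0.064). *Tomm6os*, a transcript from the strand opposite to *Tomm6*, ran from 1.31 to 2.0 CPM, with a log2 fold change of −0.19 (SE 0.22).

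Per kilobase of annotated exon, the *Ebf2*+/+ mean was highest for *Hspd1* (134 CPM per kb) and *Hspa9* (117 CPM per kb), followed by *Timm23* (57.6 CPM per kb) and *Timm8b* (51.4 CPM per kb). The chaperone genes *Hspd1* and *Hspa9* were therefore the most abundant of these transcripts on that scale. *Hspe1*, which encodes the Hsp10 lid, was lower, at 44.2 CPM per kb. Among the coding genes other than *Timm8a2*, *Timm9* was lowest, at 3.49 CPM per kb. The study describes sequencing of transcript 3′ ends, for which reads do not scale with length, whereas the sample labels name another kit, so this order is tied to the scale.

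The mice differed within each genotype in a way that ran through most of the 41 genes. When each gene was set relative to its *Ebf2*+/+ mean on the log2 CPM scale and the genes were averaged, the *Ebf2*+/+ mice lay at 0.11, −0.026, and −0.084 and the *Ebf2* E165X/+ mice at −0.25, −0.20, and −0.095. The third *Ebf2* E165X/+ mouse thus lay beside the third *Ebf2*+/+ mouse, and the other 2 *Ebf2* E165X/+ mice lay further down. As a share of all counts the 41 genes took 0.319%, 0.299%, and 0.279% in *Ebf2*+/+ mice and 0.258%, 0.276%, and 0.261% in *Ebf2* E165X/+ mice. All 3 *Ebf2* E165X/+ shares were below the *Ebf2*+/+ shares, with a small gap. The first *Ebf2*+/+ mouse had the highest *Ebf2*+/+ value for 34 of the 41 genes, and the third *Ebf2* E165X/+ mouse had the highest *Ebf2* E165X/+ value for 26. The third *Ebf2* E165X/+ mouse was above all controls for 6 genes, and the first and second for 1 each.

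**Figure D2:**
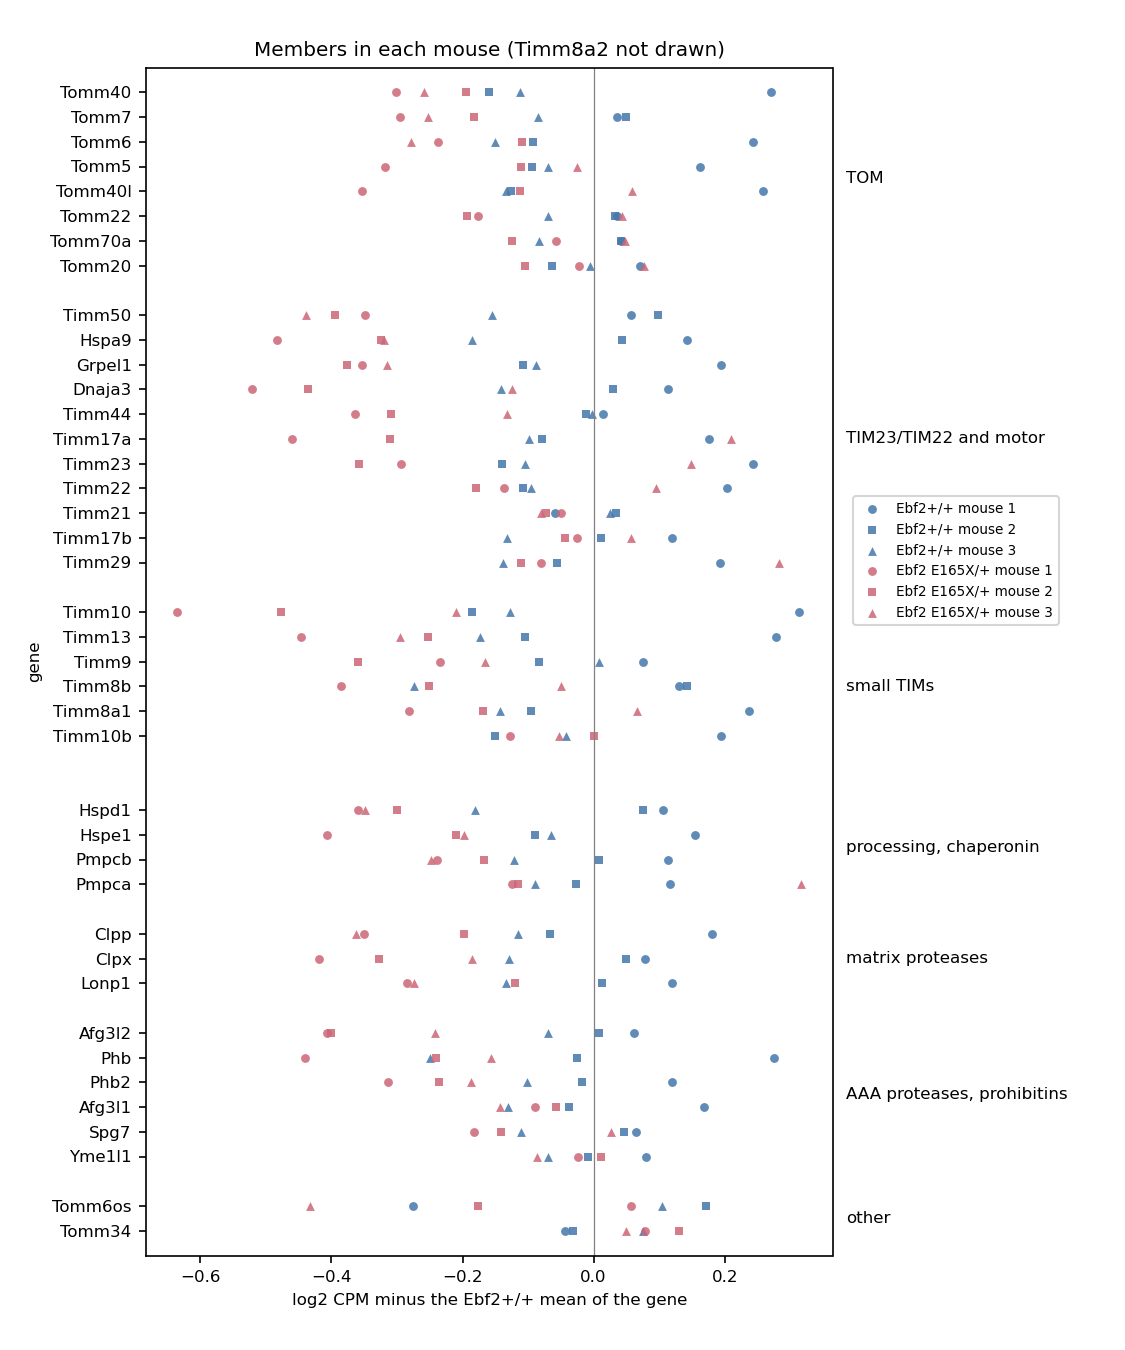
Log2 CPM of each gene in each mouse minus the *Ebf2*+/+ mean of that gene, with blue for *Ebf2*+/+, red for *Ebf2* E165X/+, and a marker shape for each mouse number. The first *Ebf2*+/+ mouse is rightmost of the *Ebf2*+/+ points for most genes, and the third *Ebf2* E165X/+ mouse (red triangle) lies at the right for *Pmpca*, *Timm29*, *Timm17a*, and *Timm23* but with its genotype for *Timm50*, *Hspd1*, and *Clpp*.

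The library of the third *Ebf2* E165X/+ mouse also had the most RNA of muscle markers, at 3.62% of its counts. Without it, 39 of the 41 genes had a log2 fold change below 0, the median was −0.24, and 20 had an unadjusted *P* under 0.05 in edgeR, lower in each case, against 4.89% of well-counted genes. Of these 20, 15 were among the 17 found with all mice. *Phb*, *Timm17a*, *Timm23*, *Timm8b*, and *Tomm22* were added, and *Lonp1* and *Pmpcb* were no longer under 0.05. Genes without overlap numbered 25 lower and 1 higher in that comparison of 3 with 2 mice, in which 12.8% of well-counted genes lay lower without overlap. Without that mouse, the genes with an unadjusted *P* under 0.05 in edgeR numbered 7 of 11 for the inner membrane translocases and motor, 4 of 7 for the small TIMs, 3 of 6 for the AAA proteases and prohibitins, and 2 each for TOM, the processing peptidase and chaperonin, and the matrix proteases. Leaving out the first *Ebf2*+/+ mouse had the opposite effect, with a median of −0.13, 34 genes below 0, and 12 with an unadjusted *P* under 0.05 in edgeR, against 3.04% of well-counted genes as lower. Leaving out the first *Ebf2* E165X/+ mouse, the lowest of its genotype on average, left 6 genes with such a *P*, 36 below 0, and a median of −0.20. In that fit 3.89% of well-counted genes reached such a *P* as lower. The 6 genes were *Timm50*, *Timm44*, *Grpel1*, *Afg3l2*, *Hspd1*, and *Clpx*, with no TOM or small TIM gene among them.

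**Figure D3:**
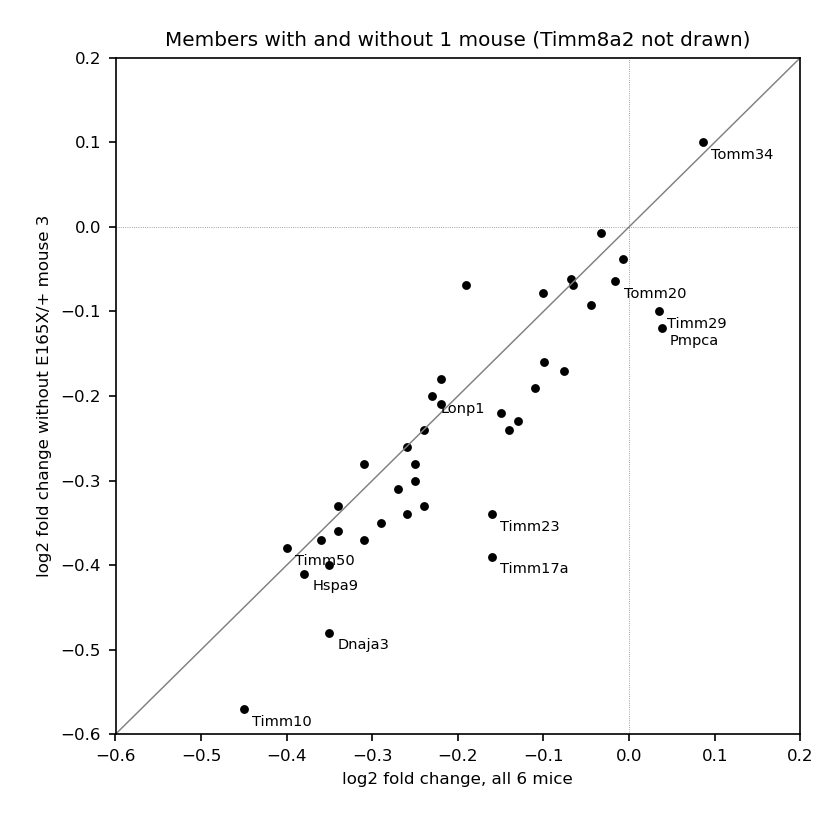
Log2 fold change with all 6 mice (x axis) against that without the third *Ebf2* E165X/+ mouse (y axis), 1 point per gene, *Timm8a2* not drawn, with a line of equality. *Timm23* and *Timm17a* lie furthest under the line, *Pmpca* and *Timm29* pass from above 0 to below 0, and *Timm50* and *Hspa9* stay near the line.

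Other genes of the pathway were counted from lists. The list of 25 other import genes covered sorting and assembly, motor partners, the intermembrane relay, insertases, and presequence peptidases. It also held genes outside these classes, such as *Timmdc1*, *Hscb*, *Immt*, and *Chchd3*. Of the 25, 23 had a log2 fold change below 0 and the median was −0.16. An unadjusted *P* under 0.05 in edgeR was reached by 6, all lower, and 7 lay lower without overlap, against 4.21% and 6.78% of well-counted genes. *Dnajc15*, a J-protein of the import motor, had 68.3, 65.1, and 58.3 CPM in *Ebf2*+/+ mice and 51.7, 49.7, and 47.6 CPM in *Ebf2* E165X/+ mice (log2 fold change −0.36, SE 0.080, unadjusted *P* = 0.00223 in edgeR). *Immp2l*, a subunit of the inner membrane peptidase, had 9.59, 7.63, and 6.89 CPM against 5.63, 5.17, and 4.32 CPM (log2 fold change −0.67, SE 0.17, unadjusted *P* = 0.00536 in edgeR). Neither overlapped between the genotypes, and in DESeq2 *Immp2l* passed both thresholds (log2 fold change −0.68, adjusted *P* = 0.0148) and *Dnajc15* the adjusted *P* alone (0.0292). The adjusted *P* in edgeR was 0.783 for *Immp2l* and 0.651 for *Dnajc15*. With the third *Ebf2* E165X/+ mouse left out, 23 of the 25 were again below 0, the median was −0.15, and 11 had an unadjusted *P* under 0.05 in edgeR. In that fit 4.89% of well-counted genes reached such a *P* as lower. The list of 18 other quality control genes, which includes mitophagy receptors and also the cytosolic *Hspa14*, had 13 below 0 and a median of −0.085. With all mice 4 had an unadjusted *P* under 0.05 in edgeR, all lower, and 3 lay lower without overlap, against 4.21% and 6.78% of well-counted genes. Its leading genes were *Afg1l*, a mitochondrial ATPase, with 22.4, 20.9, and 18.5 CPM against 13.9, 14, and 15.3 CPM, and *Clpb*, a disaggregase, with 52.4, 54.8, and 48.8 CPM against 40.6, 39.2, and 42.9 CPM. The log2 fold changes were −0.51 (SE 0.10, unadjusted *P* = 0.00121 in edgeR) for *Afg1l* and −0.34 (SE 0.073, unadjusted *P* = 0.00183 in edgeR) for *Clpb*, without overlap in either. In DESeq2 the adjusted *P* was 0.00208 for *Afg1l* and 0.028 for *Clpb*, both with fold changes smaller than 1.5. In edgeR it was 0.497 for *Afg1l* and 0.617 for *Clpb*. With the third *Ebf2* E165X/+ mouse left out, 15 of the 18 were below 0, the median was −0.12, and 5 had an unadjusted *P* under 0.05 in edgeR, again beside 4.89%.

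The list of 12 regulators and targets of the mitochondrial stress response had 4 below 0, 8 above 0, and a median of 0.085. That direction rested on the third *Ebf2* E165X/+ mouse, without which 7 of the 12 were below 0 and the median was −0.079. *Asns*, an ATF4 target for asparagine synthesis, had 64.7, 56.4, and 48.0 CPM in *Ebf2*+/+ mice and 47.3, 41.0, and 29.9 CPM in *Ebf2* E165X/+ mice (log2 fold change −0.52, SE 0.18, unadjusted *P* = 0.0208 in edgeR). It had no overlap and was the only gene of the 12 with an unadjusted *P* under 0.05 in edgeR. *Nrf1*, a regulator of nuclear genes for mitochondria that was picked out after its values were seen, lay higher without overlap, at 24.1, 24.8, and 24.1 CPM against 23.2, 23.1, and 22.4 CPM in the controls (log2 fold change 0.088, SE 0.069). *Atf4* itself had 81.6, 92.5, and 91.9 CPM against 90.6, 103, and 122 CPM, with overlap and a log2 fold change of 0.24 (SE 0.12, unadjusted *P* = 0.0759 in edgeR).

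The same counts were taken for lists of nuclear genes for other mitochondrial and other protein complexes. Of 39 complex I genes, 37 had a log2 fold change below 0, 18 had an unadjusted *P* under 0.05 in edgeR, all lower, and the median was −0.30, with *Ndufa1* (−0.41, SE 0.079) and *Ndufv3* (−0.47, SE 0.092) having the smallest unadjusted *P* values. Of 41 genes for complexes III and IV and the ATP synthase, 38 were below 0, 21 had such a *P*, all lower, and the median was −0.35, led by *Cox6a1* (−0.64, SE 0.11) and *Cox8a* (−0.64, SE 0.13). This list shares *Cox7a1* and *Cox8b* with the brown and beige adipocyte markers given below, and its log2 fold changes ran from −1.24 to 1.85. Of 75 mitochondrial ribosomal proteins, 73 were below 0, 14 had such a *P*, all lower, and the median was −0.15, led by *Mrps35* (−0.39, SE 0.071) and *Mrpl34* (−0.42, SE 0.11). Among well-counted genes 43.9% were below 0 and 4.21% had such a *P* as lower. Lower without overlap were 12 of the complex I genes, 13 of those for complexes III and IV and the ATP synthase, and 18 of the ribosomal ones, against 6.78%. Of the 39 complex I genes 37 were well-counted, as were 40 of the 41 and all 75 of the other lists. The median of the import and quality control genes, −0.22, lay between those of the respiratory chain lists and the ribosome. Chaperone and protease systems outside mitochondria were counted in the same way. For the 8 genes of the cytosolic chaperonin CCT the median was −0.0042, with 4 below 0 (*Tcp1* −0.035, SE 0.10, and *Cct5* −0.022, SE 0.077). For 13 cytosolic and endoplasmic reticulum chaperones it was 0.063, with 3 below 0 (*Hsph1* 0.37, SE 0.22, and *Dnajb1* 0.14, SE 0.085). Of 39 proteasome genes 30 were below 0, with a median of −0.044. Among those, *Psmb5* (−0.42, SE 0.13) had an unadjusted *P* of 0.0117 in edgeR and no overlap, and the next was *Psmb2* (−0.13, SE 0.078). No difference between lists was tested.

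**Figure D4:**
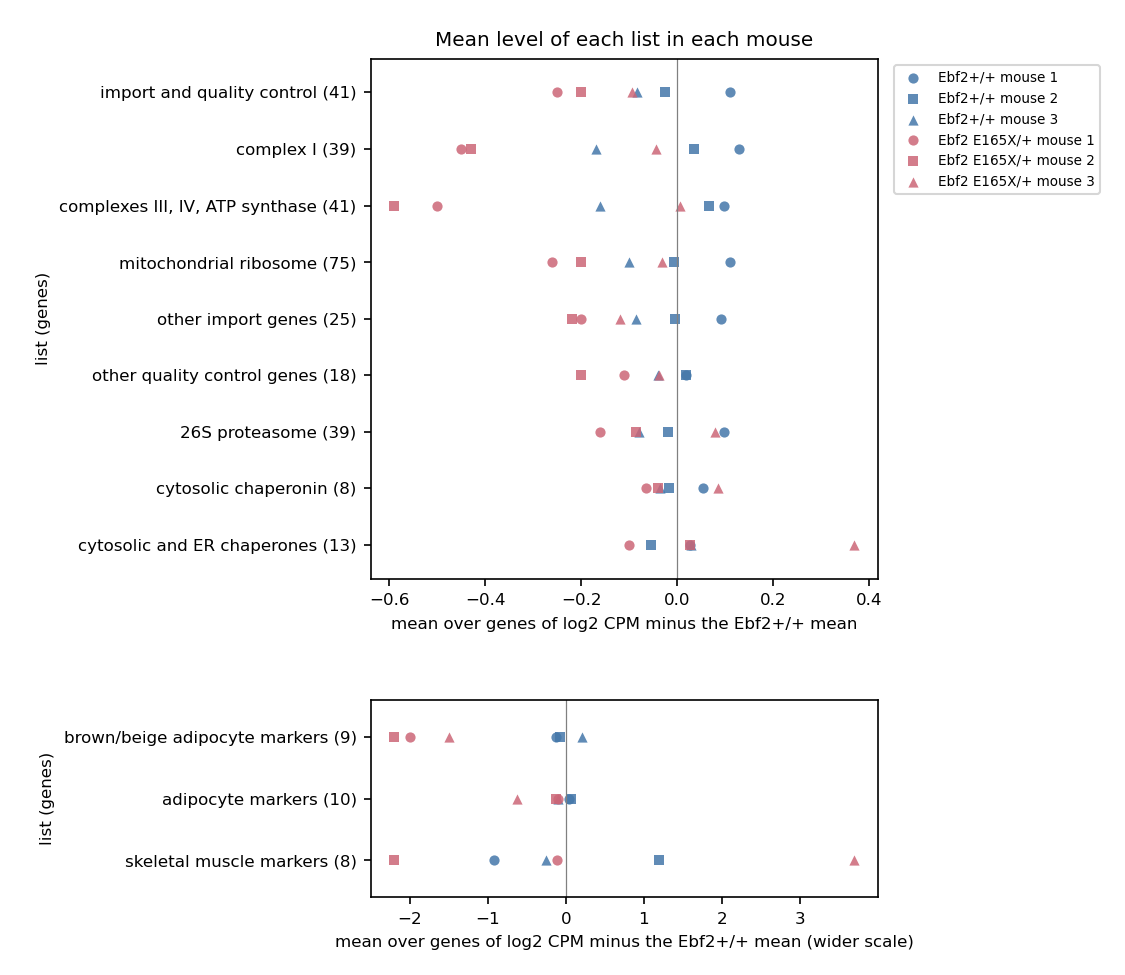
Mean over the genes of each list of log2 CPM minus the *Ebf2*+/+ mean of the gene, 1 point per mouse, with marker lists in a lower panel on a wider scale. For the import and quality control genes the third *Ebf2* E165X/+ mouse is at −0.095, beside the third *Ebf2*+/+ mouse at −0.084, whereas for complexes III, IV, and ATP synthase it is at 0.0062 and the other *Ebf2* E165X/+ mice are at −0.50 and −0.59.

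In the respiratory lists the third *Ebf2* E165X/+ mouse lay with the controls. For complexes III, IV, and ATP synthase the *Ebf2* E165X/+ mice lay at −0.50, −0.59, and 0.0062 relative to the *Ebf2*+/+ mean, and for complex I at −0.45, −0.43, and −0.045. With that mouse left out, the median log2 fold changes were −0.49 and −0.46 for these lists, respectively, and −0.22 for the mitochondrial ribosome. The number of genes with an unadjusted *P* under 0.05 in edgeR then went from 21 to 34 for complexes III, IV, and ATP synthase, from 18 to 36 for complex I, and from 14 to 35 for the ribosome, all lower, while the share of well-counted genes went from 4.21% to 4.89%. In the same comparison all 8 CCT genes were below 0 (median −0.048), as were 7 of the 13 cytosolic and endoplasmic reticulum chaperones (median −0.014) and 36 of the 39 proteasome genes (median −0.11).

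Cell type markers that moved with genotype or with single libraries are given beside these results, and their part in them was not tested. All 9 brown and beige adipocyte markers had log2 fold changes below 0, with a median of −1.5. The list took 0.0170%, 0.0233%, and 0.0235% of the counts in *Ebf2*+/+ mice and 0.00474%, 0.00563%, and 0.00904% in *Ebf2* E165X/+ mice, without overlap and with none of its genes at 0. Its most abundant gene, *Cidea*, fell from 82.4, 103, and 106 CPM to 7.97, 9.61, and 13.2 CPM (log2 fold change −3.24, adjusted *P* = 0.00462 in edgeR). The thermogenic gene *Ucp1* had 10.8, 21.3, and 33 CPM against 0.259, 0.264, and 0.617 CPM (log2 fold change −5.83). The 8 muscle markers had a median log2 fold change of 1.9 with all mice, and leaving out the third *Ebf2* E165X/+ mouse gave −1.1. Of the 10 adipocyte markers 9 were below 0, with a median of −0.28, or −0.14 without the third *Ebf2* E165X/+ mouse. The 7 B cell markers, led by *Cd22*, were all above 0 with a median of 0.30, 5 of them higher without overlap, against 6.66% of well-counted genes, and they took 0.0416%, 0.0679%, and 0.0689% of counts in *Ebf2*+/+ mice against 0.0741%, 0.0861%, and 0.0698%. Median log2 fold changes were −0.24 for 6 endothelial markers, 0.10 for 6 macrophage markers, 0.074 for 7 progenitor and fibroblast markers, 0.21 for 6 T cell markers, 0.17 for 5 Schwann cell markers, and 0.14 for 6 erythroid markers. Of the endothelial markers 2 lay lower without overlap, against 6.78% of well-counted genes. Without the third *Ebf2* E165X/+ mouse the median was −0.13 for endothelial, 0.065 for Schwann cell, and 0.36 for erythroid markers. The 6 epithelial markers varied with the library more than with genotype, at 0.000432% to 0.00739% of counts in *Ebf2*+/+ mice and 0.000418% to 0.00344% in *Ebf2* E165X/+ mice.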

How the data were processed

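RNA from the IWAT of 3 *Ebf2*+/+ and 3 *Ebf2* E165X/+ mice was sequenced, each mouse in a library of its own. What the authors deposited are expected counts per Ensembl gene, not scaled for library size. Their processing notes name cutadapt 4.8, STAR 2.7.8a, RSEM 1.3.3, and GRCm38. The study's methods describe 3′ mRNA libraries, and the labels name another kit. All 332946 values were whole numbers, so rounding changed none. Whether counting used strand is not given in the sources used here.

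Genes with a count in any of the libraries were tested in R 4.3.3 with edgeR 4.0.16 (TMM, glmQLFit, and glmQLFTest, genotype as the only term), with Benjamini-Hochberg adjustment over all 32664 genes. Log2 CPM used a prior count of 2. The SE and *P* values measure the spread between mice, 3 per genotype, as well as counting error. DESeq2 1.42.0, the study's tool, and limma-voom 3.58.1 were alternatives, as were DESeq2's size factors, 2 stricter count filters, exclusion of mitochondrially encoded genes, a replicate block, and each mouse left out.

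The members, lists, and tests were chosen with earlier results of these data known. Values in every mouse were given for core subunits and enzymes, for the 5 members with the smallest *P* among those lower and all 3 well-counted members that were higher, for the 5 with the largest log2 fold change, and for the 2 genes of each pathway list with the smallest *P*. Values in every mouse for *Tomm7*, *Phb*, *Nrf1*, and *Ucp1* were added after they were seen. Promoters came from RefSeq GRCm38.p6, and exon overlaps from GENCODE M21, which holds 55141 of the 55491 identifiers.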

Additional observations from a re-analysis of the deposited data

How the results depend on the processing

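The number of genes called by edgeR was 3, and it was 98 with DESeq2 and 1 to 11 when single mice were left out (1 without the second *Ebf2*+/+ mouse and 11 without the third *Ebf2* E165X/+ mouse). None of the 41 genes passed both thresholds under any alternative, and with DESeq2 2 passed the adjusted *P* alone. The direction was kept in all alternatives for 34 of the 41 genes. With single mice left out, the log2 fold change reversed for *Timm17b* (−0.093 to 0.039), *Timm22* (−0.17 to 0.019), *Timm29* (−0.10 to 0.12), *Pmpca* (−0.12 to 0.11), *Tomm20* (−0.064 to 0.027), *Timm10b* (−0.15 to 0.023), and *Timm8a2* (−0.094 to 0.63), and the cause was not tested. In those comparisons 6 to 20 genes had an unadjusted *P* under 0.05 in edgeR (6 without the first *Ebf2* E165X/+ mouse), against 3.04% to 5.1% of well-counted genes that reached it as lower, 34 to 39 were lower, the median ran from −0.27 to −0.13, and 16 to 26 had no overlap (26 without the third *Ebf2* E165X/+ mouse). Of these, 16 to 25 lay lower, against 9.49% to 12.8% of well-counted genes that lay lower without overlap. The scaling and filter alternatives gave 17 or 18 genes with an unadjusted *P* under 0.05 in edgeR, and medians of −0.24 to −0.22. In these fits 4.32% to 5.07% of well-counted genes reached such a *P* as lower. limma-voom gave 17 genes, against 4.2%, and a median of −0.21.

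Replicate numbers do not name litters or batches, and the deviations of same-numbered mice correlated at 0.15, −0.28, and −0.16 over 18905 genes. With 3 mice per genotype these correlations cannot decide whether same-numbered mice shared a litter or batch, and the labels do not say. With a replicate block in edgeR, which leaves 2 residual degrees of freedom in place of 4, 11 of the 41 genes had an unadjusted *P* under 0.05, all lower, against 3.78% of well-counted genes, the median was −0.21, and 2 genes were called among all tested.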
